A study of Rattus norvegicus with 10 samples.

Results

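The NMDA receptor subunit genes Grin1, Grin2a, Grin2b, Grin2c, Grin2d and Grin3a were taken by gene name from the deposited gene-level count table. All 6 were found once each among its 14354 genes. RNA came from hippocampal cultures that hold both neurons and glia, prepared from embryonic day 18 Sprague-Dawley rats. One group of 5 libraries was from cultures given 1 µM tetrodotoxin (TTX), a toxin that stops neuronal firing by closing off sodium channels, and the other 5 were from cultures given vehicle. Treatment began at 19 days in vitro and lasted 24 h. Whether libraries of 1 group were separate cultures is not in the labels, and every p-value here therefore reflects spread among these samples alone, which may be technical.

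NMDA receptors are glutamate-gated, calcium-permeable channels that open only when glutamate and a co-agonist (glycine or D-serine) are bound and depolarization has relieved a magnesium block. Each is a tetramer that holds the obligatory GluN1 subunit, encoded by Grin1, together with GluN2 subunits (Grin2a to Grin2d), which bind glutamate, or GluN3 subunits (Grin3a and Grin3b), which bind glycine. The GluN2 subunit sets how long the channel stays open and how strongly magnesium blocks it, and in the maturing rodent hippocampus GluN2A joins or replaces GluN2B at many synapses.

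After TTX, Grin2a rose 1.27-fold, whereas Grin1, Grin2b, Grin2c and Grin2d were 1.25-fold, 1.24-fold, 1.18-fold and 1.27-fold lower. Grin3a did not pass the test. All 5 changes were small, and none passed a test against a 1.5-fold change (adjusted p = 1 for each by edgeR's glmTreat). The calls are those of edgeR's quasi-likelihood test, fitted over 13088 genes with Benjamini-Hochberg adjustment and called at an adjusted p under 0.05. By that rule 70.5% of all genes tested were called, 35.4% higher and 35.0% lower, so 5 called of 6 subunits is close to the rate of the whole table. The test against 1.5-fold called 13.8% of genes. The median absolute log2 fold change was 0.32 over the 6 subunits and 0.27 over all genes tested.

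The libraries held 58785925 to 84921962 counts in the TTX group and 52254261 to 77757538 in the vehicle group, and no subunit was lost to the filter on low counts. Levels are given as CPM (counts scaled to library size) when groups are compared, and as the authors' deposited FPKM (per kilobase of transcript) when genes are compared. TTX replicate 5 lay away from the rest on principal component 2 of all genes (-25.8, against 1.64 to 10.9 in the other TTX libraries). Without it the same 5 subunits were called in the same directions. As a check of the culture type, neuronal genes such as Snap25 (594 CPM with TTX and 558 CPM with vehicle) and the astrocyte filament gene Gfap (9702 CPM with TTX and 5364 CPM with vehicle) were both abundant. Markers of microglia and of vascular cells were low.

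**Figure D1:**
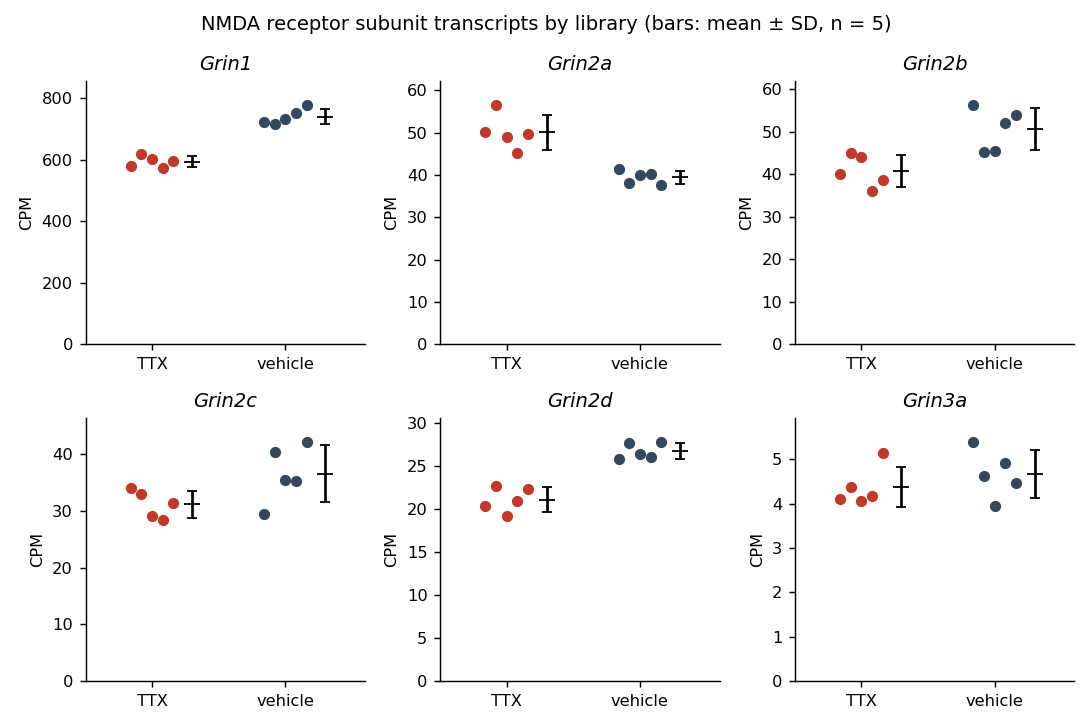
Transcript level of each NMDA receptor subunit gene, in CPM on a vertical axis that starts at 0, with 1 point per library and the mean ± SD beside the points (n = 5 in each group). TTX and vehicle points of Grin1, Grin2a, Grin2b and Grin2d do not overlap, with Grin2a the subunit that is higher after TTX, and those of Grin2c and Grin3a do overlap.

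Grin1 was by far the most abundant subunit transcript. It measured 580.1, 619.7, 604, 573 and 595 CPM in TTX replicates 1 to 5, against 724, 716, 732, 754 and 779 CPM in vehicle replicates 1 to 5. Every TTX library lay below every vehicle library, and both groups were tight, with an SD of 3.13% of the mean in the TTX group and 3.44% in the vehicle group. The log2 fold change was -0.32 ± 0.0291 (SE, adjusted p = 1.84e-07 by edgeR). Although this was the smallest p of the 6 subunits, 2737 genes called lower had a larger fall. In these bulk samples, fewer cells of a type and less RNA per cell cannot be told apart.

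Because Grin1 carries the bulk of the subunit transcripts, its promoter and that of Grin2d, which fell by a similar factor, are shown as RefSeq gives them in assembly GRCr8. Each run is the 250 bases before the start, on the minus strand, at chr3:28528755-28529004 for Grin1 and chr1:105481237-105481486 for Grin2d. Capitals mark matches to TGACG, the core of the cyclic AMP response element, on either strand.
Grin1: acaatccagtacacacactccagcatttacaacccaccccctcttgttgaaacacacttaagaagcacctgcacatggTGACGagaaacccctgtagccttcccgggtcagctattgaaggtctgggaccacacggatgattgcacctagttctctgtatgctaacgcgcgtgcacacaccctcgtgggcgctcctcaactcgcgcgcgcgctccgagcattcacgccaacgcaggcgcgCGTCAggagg
Grin2d: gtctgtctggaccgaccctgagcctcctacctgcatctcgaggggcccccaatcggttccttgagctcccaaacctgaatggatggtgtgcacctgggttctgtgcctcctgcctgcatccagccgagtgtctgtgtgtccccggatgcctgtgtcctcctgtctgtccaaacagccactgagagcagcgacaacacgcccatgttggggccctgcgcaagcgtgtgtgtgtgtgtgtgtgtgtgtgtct

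The search covered windows of 300 bases, 250 before and 50 after the start, on both strands. RefSeq windows were matched for 4 of the 6 subunits (Grin1, Grin2c, Grin2d and Grin3a). Beside the 2 matches in capitals, which begin 172 and 10 bases before the start, the Grin1 window held another TGACG match and 1 match to the GC box GGGCGG, both after the start. Of 33469 promoters in the table, 21.2% held TGACG and 33.1% held GGGCGG, so neither is rare. Neither motif was found in the windows of Grin2c, Grin2d or Grin3a. In none of the 4 windows was there a match to the palindromic consensus of NRF1 (in 0.852% of all promoters) or to TTCAGCACC, the left part of the REST site (in 0.356%).

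Among the GluN2 subunits, Grin2a was the one that rose. It measured 50.1, 56.6, 49.0, 45.1 and 49.6 CPM in TTX replicates 1 to 5, against 41.3, 38.0, 40.1, 40.2 and 37.7 CPM in vehicle replicates 1 to 5. The lowest TTX library was above the highest vehicle library. Its log2 fold change was 0.34 ± 0.0517 (SE, adjusted p = 3.23e-05 by edgeR), and 2353 genes called higher had a larger rise. Excitatory neuron markers moved in the same libraries. Of 8 tested, 5 rose and 2 fell, with sums of 2614 to 2755 CPM with TTX and 2034 to 2239 CPM with vehicle. Their part in the rise of Grin2a was not tested.

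Grin2b, the subunit that dominates early in development and carries a long cytoplasmic tail that binds CaMKII, went the other way. It measured 40.2, 44.9, 44.0, 36.0 and 38.7 CPM in TTX replicates 1 to 5, against 56.3, 45.2, 45.6, 52.2 and 53.9 CPM in vehicle replicates 1 to 5. The groups were separated only narrowly, since 2 TTX libraries and 2 vehicle libraries lay between 44.0 and 45.6 CPM. In the deposited FPKM the groups overlapped slightly, with TTX replicate 2 at 8.389 FPKM and vehicle replicate 2 at 8.384 FPKM. The log2 fold change was -0.31 ± 0.0713 (SE, adjusted p = 0.00126 by edgeR).

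Grin2c, best known from cerebellar granule cells and also transcribed in astrocytes, gave the least secure call. It measured 34.0, 32.9, 29.0, 28.3 and 31.3 CPM in TTX replicates 1 to 5, against 29.5, 40.5, 35.4, 35.2 and 42.2 CPM in vehicle replicates 1 to 5. The groups overlapped, with vehicle replicate 1 inside the TTX range. The log2 fold change was -0.23 ± 0.0836 (SE, adjusted p = 0.0223 by edgeR). The call ended without TTX replicate 3 (adjusted p = 0.0504 by edgeR), TTX replicate 4 (adjusted p = 0.0569), vehicle replicate 2 (adjusted p = 0.0553) or vehicle replicate 5 (adjusted p = 0.0670). Astrocyte markers moved in the same libraries. Of 9 tested, 5 rose, 2 fell and 2 did not pass. Their summed level ran from 15526 to 17438 CPM with TTX and from 10263 to 12013 CPM with vehicle, the opposite direction to Grin2c. Gfap was the largest part of that sum, at 9542 to 9948 CPM with TTX and 4746 to 5878 CPM with vehicle. The sum therefore mainly follows Gfap and does not stand for all 9 markers. Aqp4, which did not pass, was split within the TTX group. It measured 1795 and 1793 CPM in TTX replicates 1 and 2, but 340, 272 and 328 CPM in TTX replicates 3 to 5. Its vehicle libraries ran from 1049 to 1219 CPM. The part of astrocyte content in the change of Grin2c was not tested.

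Grin2d, which in the hippocampus is found mainly in interneurons, had 20.3, 22.7, 19.2, 21.0 and 22.3 CPM in TTX replicates 1 to 5, against 25.8, 27.7, 26.4, 26.0 and 27.8 CPM in vehicle replicates 1 to 5. All TTX libraries were below all vehicle libraries. The log2 fold change was -0.34 ± 0.0490 (SE, adjusted p = 1.92e-05 by edgeR). Some of the inhibitory neuron markers moved with it. Of 9 tested, 5 fell and none rose, and their summed level ran from 1228 to 1300.0 CPM with TTX and from 1763 to 1861 CPM with vehicle. The 5 were Gad1 and Gad2, which make GABA, and the peptide genes Sst, Npy and Vip, whereas 4 of the list, among them the vesicular GABA transporter Slc32a1 and the transcription factor Lhx6, did not pass. The part of interneuron content in the change of Grin2d was not tested.

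Grin3a, which encodes a glycine-binding subunit that is most abundant in juvenile brain and lowers calcium permeability, was the scarcest of the 6. It measured 4.11, 4.37, 4.06, 4.17 and 5.15 CPM in TTX replicates 1 to 5, against 5.40, 4.63, 3.95, 4.92 and 4.47 CPM in vehicle replicates 1 to 5. The groups overlapped over most of their range. The log2 fold change was -0.10 with a 95% confidence interval from -0.31 to 0.12 (adjusted p = 0.415 by edgeR), which reaches the size of the change in Grin2b but not quite that in Grin1. Its relative Grin3b is not among the 6 and was looked at after its values were seen. It measured 4.10 to 5.36 CPM with TTX and 1.67 to 3.02 CPM with vehicle, with a log2 fold change of 1.00 ± 0.151 (SE, adjusted p = 3.38e-05 by edgeR). Grin3b also passed the test against 1.5-fold (adjusted p = 0.0140 by glmTreat), unlike any of the 6.

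In the authors' deposited table, the same 5 subunits had adjusted p-values under 0.05, in the same directions. The authors' deposited table gives log2 fold changes of -0.32 for Grin1, 0.34 for Grin2a, -0.31 for Grin2b, -0.23 for Grin2c, -0.35 for Grin2d and -0.10 for Grin3a.

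In 4 of the 6 subunits the CPM ranges of the groups did not overlap (1 of them higher and 3 lower with TTX), against 57.3% of all genes tested, 28.2% higher and 29.1% lower. Neuronal content was then set beside these changes. Of 8 pan-neuronal markers, 2 (Rbfox3 and Map2) rose, 1 (Stmn2) fell and 5 did not pass, and the ranges of their summed level overlapped, at 2722 to 2852 CPM with TTX and 2624 to 2827 CPM with vehicle. Without TTX replicate 2 Rbfox3 did not pass (adjusted p = 0.0534 by edgeR). Taken relative to that sum, a comparison added after seeing the data, Grin1 fell by 0.35 on the log2 scale, Grin2b by 0.35, Grin2c by 0.26 and Grin2d by 0.38, and Grin2a rose by 0.31. The exact two-sided permutation test over libraries gave p = 0.0397 for Grin2c and p = 0.00794, the smallest it can give, for each of the other 4. For Grin3a the difference was -0.13 (exact permutation p = 0.230). None of these p-values was adjusted for the number of subunits, and the pan-neuronal sum does not separate kinds of neurons.

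Set side by side per kilobase of transcript, the subunits had the following order. In TTX libraries Grin1 averaged 142 ± 4.65 FPKM, followed by Grin2a at 10.4 ± 0.858, Grin2b at 7.60 ± 0.709, Grin2c at 6.95 ± 0.537, Grin2d at 3.94 ± 0.260 and Grin3a at 1.35 ± 0.137 FPKM (SD, n = 5). In vehicle libraries Grin1 averaged 175 ± 4.58 FPKM, followed by Grin2b at 9.36 ± 0.904, Grin2a at 8.13 ± 0.352, Grin2c at 8.09 ± 1.07, Grin2d at 4.95 ± 0.158 and Grin3a at 1.43 ± 0.165 FPKM (SD, n = 5). The place of Grin2a was what differed. In all 5 TTX libraries Grin2a was above Grin2b, and in all 5 vehicle libraries Grin2b was above Grin2a. Neighbours whose ranges over libraries overlapped were Grin2b and Grin2c in the TTX group, and Grin2b with Grin2a and Grin2a with Grin2c in the vehicle group. Over all 10 libraries Grin1 had a higher mean FPKM than 94.4% of the genes tested, and Grin3a than 16.1%. Tested genes without an FPKM count as not lower in these shares, which makes them slightly low. Only 549 tested genes had a higher mean FPKM than Grin1.

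The ratio of Grin2a to Grin2b, which does not depend on how libraries are scaled, was 1.39, 1.40, 1.24, 1.40 and 1.43 in TTX replicates 1 to 5, against 0.818, 0.937, 0.981, 0.858 and 0.780 in vehicle replicates 1 to 5. It stood above 1 in every TTX library and below 1 in every vehicle library. Where it stands relative to 1 rests on the transcript lengths behind the deposited FPKM, whereas the difference between groups does not. On the log2 scale the ratio averaged 0.46 ± 0.0812 with TTX and -0.20 ± 0.137 with vehicle (SD, n = 5 each; exact two-sided permutation p = 0.00794, adjusted p = 0.0298 over the 15 pairs of subunits).

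**Figure D2:**
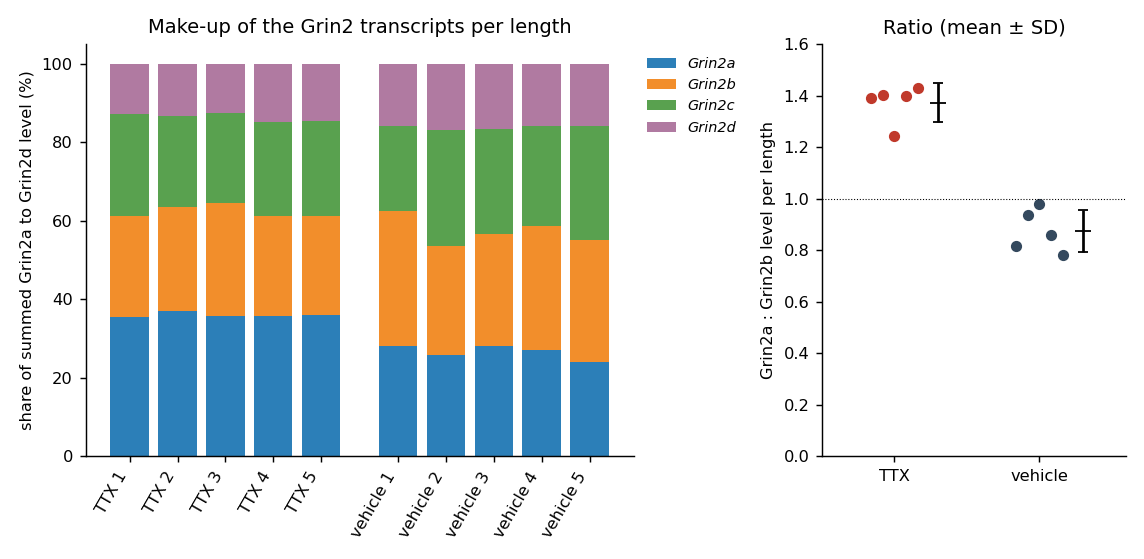
Left, share of each GluN2 transcript in the summed level per length of Grin2a to Grin2d, in percent, with 1 stacked bar per library and TTX libraries on the left. Right, ratio of Grin2a to Grin2b per library with the mean ± SD (n = 5 in each group) and a dotted line at 1; Grin2a holds 35.5% to 37.1% of the sum in TTX libraries and 24.1% to 28.2% in vehicle libraries.

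Grin2a made up 36.0 ± 0.616% of the summed GluN2 transcripts in TTX libraries and 26.7 ± 1.70% in vehicle libraries (SD, n = 5 each). Grin2b made up 26.3 ± 1.49% with TTX and 30.6 ± 2.67% with vehicle, and Grin2c 24.1 ± 1.23% with TTX and 26.5 ± 3.19% with vehicle. Grin2d made up 13.7 ± 0.994% with TTX and 16.2 ± 0.511% with vehicle. The shares of Grin2a and of Grin2d did not overlap between groups, whereas those of Grin2b and Grin2c did. The sum of the 4 overlapped between groups, at 28.9 ± 1.94 FPKM with TTX and 30.5 ± 0.839 FPKM with vehicle. Grin1 exceeded that sum 4.91 ± 0.226-fold in TTX libraries and 5.73 ± 0.123-fold in vehicle libraries, with no overlap (4.66 to 5.19 and 5.58 to 5.88). These sums over subunits are descriptions and were not tested.

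Whether the subunits differed in their response was tested for each of the 15 pairs, as the difference between groups in the log2 ratio of their counts. All 5 pairs that include Grin2a passed, and none of the other 10 did. Against Grin1, Grin2b, Grin2c, Grin2d and Grin3a, Grin2a gained by a factor of 1.58, 1.57, 1.48, 1.61 and 1.35. The first 4 had exact permutation p = 0.00794 (adjusted p = 0.0298 over the 15 pairs) and groups that did not overlap. The pair with Grin3a had exact permutation p = 0.0159 (adjusted p = 0.0476) and groups that overlapped. Among the other 10 pairs, the ratio of Grin1 to Grin2b moved by -0.01 ± 0.0715 and that of Grin1 to Grin2d by 0.03 ± 0.0503 (log2, SE). The lowest adjusted p among these 10 was that of Grin2d and Grin3a, at -0.25 ± 0.0968 (exact permutation p = 0.0476, adjusted p = 0.119). A p above the threshold does not show that these pairs moved alike. With 1 library left out, the smallest exact p is 0.0159, and no pair passed the adjustment without TTX replicate 1, 2, 3 or 4 or without vehicle replicate 2, 4 or 5. In each of those cases the ratio of Grin2a to Grin2b still had that smallest exact permutation p, with adjusted p = 0.0595. With other libraries left out, up to 6 pairs passed, more than the 5 that include Grin2a, so a pair without Grin2a can also pass.

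**Figure D3:**
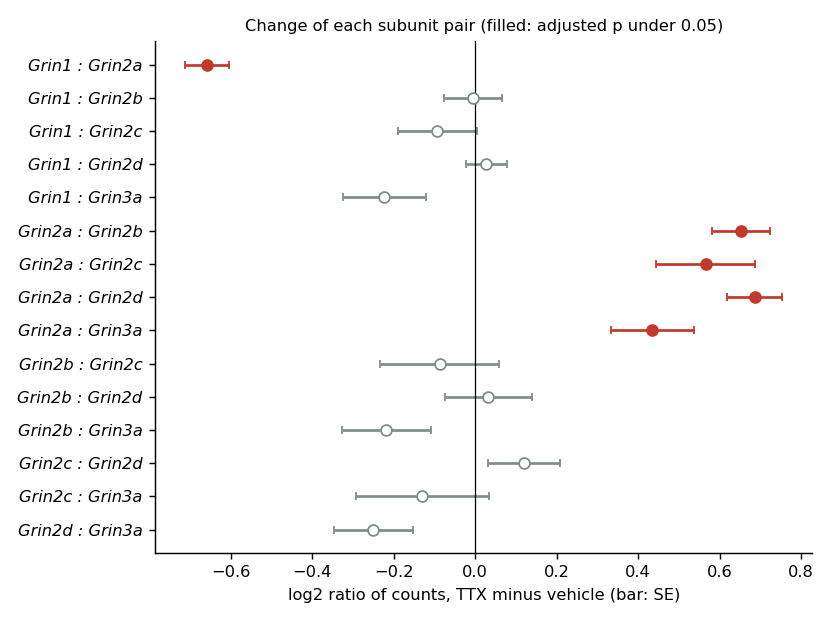
Difference between TTX and vehicle in the log2 ratio of counts for each of the 15 pairs of subunits, with the standard error as a bar. Filled points mark the 5 pairs with an adjusted p under 0.05, all of which include Grin2a; Grin1 with Grin2b and Grin1 with Grin2d lie near 0.

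The other ionotropic glutamate receptor genes, which encode AMPA, kainate and delta subunits, were counted beside the NMDA receptor subunits. Of 11, 6 rose, 2 fell and 3 did not pass, with a median log2 fold change of 0.23, against -0.27 over the 6 NMDA receptor subunits and 0.01 over all genes tested. The summed level of the 11 genes ran from 1593 to 1717 CPM with TTX and from 1297 to 1402 CPM with vehicle. Over the 6 NMDA receptor subunits it ran from 708 to 781 CPM with TTX and from 872 to 945 CPM with vehicle. Grik4, a kainate receptor subunit, rose to an average of 154 ± 4.50 CPM with TTX, against 101 ± 3.06 CPM with vehicle (log2 fold change 0.61 ± 0.0280 SE). Gria2, the AMPA receptor subunit that makes channels nearly impermeable to calcium, averaged 602 ± 34.7 CPM with TTX and 434 ± 22.9 CPM with vehicle. Gria3 fell to 94.4 ± 3.31 CPM with TTX, against 114 ± 2.81 CPM with vehicle (SD, n = 5 each).

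**Figure D4:**
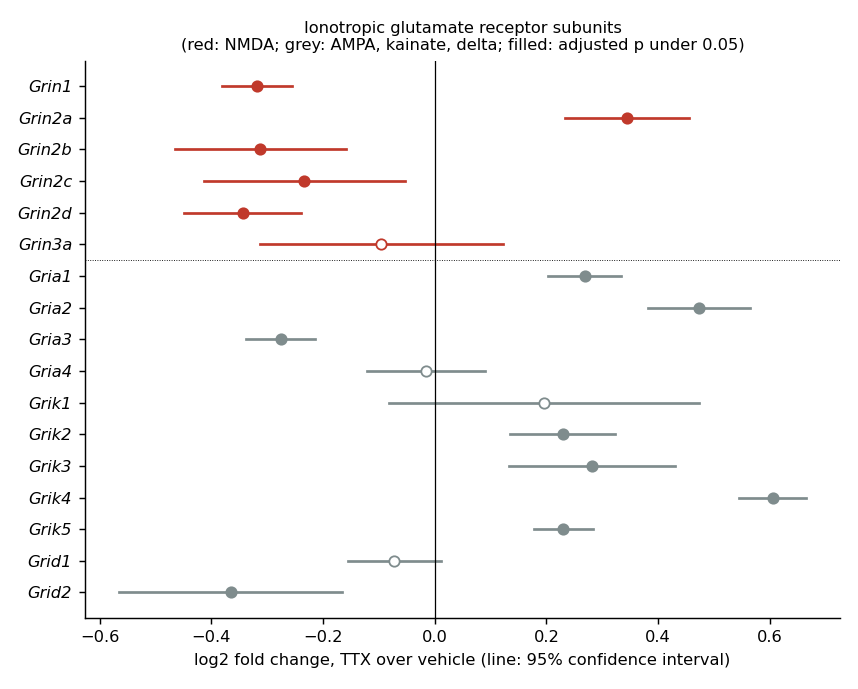
Log2 fold change of TTX over vehicle for the 6 NMDA receptor subunit genes (red) and 11 other ionotropic glutamate receptor genes (grey), with 95% confidence intervals from the edgeR fit. Filled points have an adjusted p under 0.05; 4 of 6 NMDA receptor genes are filled and below 0, and 6 of 11 of the others are filled and above 0.

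Genes around the receptor were then counted by role. Of 18 genes that anchor or move NMDA receptors, 7 rose, 3 fell and 8 did not pass (median log2 fold change 0.02). Lin7a, a scaffold of the complex that carries GluN2B along dendrites, fell to 1.75 ± 0.223 CPM with TTX, against 6.45 ± 0.931 CPM with vehicle. Neto1, an auxiliary protein of NMDA and kainate receptors, rose to 114 ± 8.08 CPM with TTX, against 68.5 ± 5.49 CPM with vehicle. Snx27, which returns receptors from endosomes to the membrane, rose 1.26-fold. Dlg4, which encodes the scaffold PSD-95 and was chosen after its values were seen, had 901 ± 14.8 CPM with TTX and 929.6 ± 22.0 CPM with vehicle and did not pass (adjusted p = 0.0845 by edgeR, and 0.0377 without vehicle replicate 3).

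Of 18 kinases and phosphatases that act on the receptor, 9 rose, 6 fell and 3 did not pass (median 0.07). Ptpn5, the phosphatase STEP that removes phosphate from GluN2B and lowers surface NMDA receptors, measured 106 to 118 CPM over the TTX libraries and 223 to 243 CPM over the vehicle libraries. That is a log2 fold change of -1.07 ± 0.0375 (SE, adjusted p = 5.34e-12 by edgeR). Ptk2b, the kinase Pyk2, rose 1.65-fold and Ppp3ca, a catalytic subunit of calcineurin, 1.61-fold.

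Of 16 genes of calcium signalling downstream of the receptor, 8 rose, 5 fell and 3 did not pass (median 0.03). Nos1, the neuronal nitric oxide synthase that PSD-95 tethers to NMDA receptors, showed the largest change of these. It measured 70.9 to 80.6 CPM in TTX libraries and 12.2 to 13.9 CPM in vehicle libraries, 5.77-fold higher with TTX (adjusted p = 9.53e-15 by edgeR). Sptan1, a spectrin cut by calpain, rose 1.43-fold, and Rasgrp1, an activator of Ras that responds to calcium and diacylglycerol, was 1.57-fold lower.

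Of 18 genes that supply or clear co-agonists and glutamate, 7 rose, 8 fell and 3 did not pass (median 0.03). The members with the smallest p belong to serine and glycine metabolism and transport. Shmt2, a mitochondrial enzyme that interconverts serine and glycine, measured 62.3 to 68.5 CPM with TTX and 137 to 147 CPM with vehicle, 2.12-fold lower with TTX (adjusted p = 1.34e-12 by edgeR). Slc1a4, a carrier of serine and other neutral amino acids, was 1.94-fold lower, and Psph, the last enzyme of serine synthesis, 1.69-fold lower. Other serine and glycine genes of the list were called higher, among them the serine synthesis genes Phgdh (1.28-fold) and Psat1 (1.36-fold). The 3 falls therefore do not stand for serine and glycine genes as a whole.

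Of 10 tested regulators of subunit gene transcription, 3 rose, 6 fell and 1 did not pass (median -0.22). Npas4, an activity-induced factor, averaged 0.0987 ± 0.0676 CPM with TTX and 92.6 ± 8.61 CPM with vehicle. Tbr1, which binds the Grin2b gene in mouse cortex, went the opposite way to Grin2b. It rose 2.65-fold and measured 46.4 to 49.3 CPM with TTX and 16.2 to 19.5 CPM with vehicle. Sp1, which binds GC boxes, fell to 42.6 ± 1.30 CPM with TTX, against 54.2 ± 1.58 CPM with vehicle (SD, n = 5 each). The part of these regulators in the subunit changes was not tested. Over all genes tested, 70.5% were called, 35.4% higher and 35.0% lower. No list was tested against the rest of the table, so these counts alone do not show that any list differs from it.

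**Figure D5:**
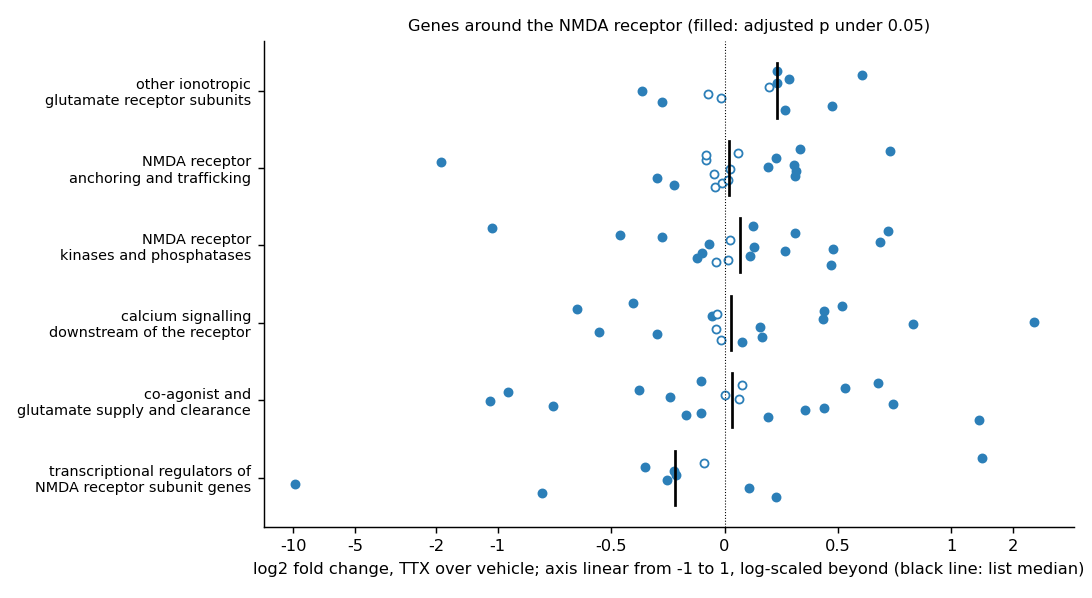
Log2 fold change of TTX over vehicle for each tested gene of 6 lists around the NMDA receptor, with the axis linear from -1 to 1 and log-scaled beyond, and a black line at each list's median. Filled points have an adjusted p under 0.05; the medians lie between -0.22 and 0.23, and the point farthest to the left is Npas4.

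The genes whose profile over the 10 libraries was nearest to each subunit were found by the root mean square difference in log2 CPM, after each gene's vehicle mean was subtracted. Nearest to Grin1 were Lmbrd1 (0.0216), a lysosomal protein of cobalamin export, and Prkar1a (0.0260), a regulatory subunit of protein kinase A. Many genes were about as close, with 970 within 0.1 of Grin1, so these names single out little. For Grin2a, Smg6 (0.0503) and Apc2 (0.0521) came first, among 352 within 0.1. For Grin2b, Gabra3 (0.0706), a GABA-A receptor subunit, and Reln (0.0715), which encodes reelin, came first, among 37. Grin2d was nearest to Rnf114 (0.0469) and Wdr91 (0.0470), among 446. Grin2c, whose vehicle libraries were the most spread, was nearest to Samd10 (0.0898) and Plekhh3 (0.0965), the only genes within 0.1. Grin3a was nearest to Apool (0.0808) and Ctns (0.0817), among 6.

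Markers of other cells moved in the same libraries. Of 9 markers of the oligodendrocyte lineage 7 rose and 1 fell, with sums of 1987 to 2152 CPM with TTX and 1252 to 1538 CPM with vehicle. Of 8 microglial markers 2 rose and 6 did not pass, with sums of 79.8 to 233 CPM with TTX and 80.7 to 127 CPM with vehicle. The highest of these TTX sums was that of TTX replicate 5, the library that lay apart on principal component 2. Of 5 tested vascular and meningeal markers 4 fell, with sums of 26.9 to 36.1 CPM with TTX and 53.9 to 66.0 CPM with vehicle. The endothelial marker Cldn5 and the pericyte marker Rgs5 were below the count filter and at 0 in some libraries. The part of these shifts in the subunit changes was not tested. The comparison with pan-neuronal markers does not cover these cells.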

How the data were processed

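The deposited table gives, for each gene, the counts and FPKM of every library together with log2 fold changes and p-values from the authors. The rat build rn6 and the tools StringTie, HISAT2 2.1.0 and DESeq2 appear, with no role, per the submitters' processing notes. The counting tool and its strand setting are not given in the sources used here. Identical repeat lines (254 of 14608) were collapsed, which left 14354 genes.

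Counts were filtered with filterByExpr (at least 10 counts, total at least 15), which left 1266 genes untested, then scaled by TMM and fitted with glmQLFit, glmQLFTest and glmTreat of edgeR 4.0.16 under R 4.3.3. The SE of a log2 fold change is its size divided by the root of the F statistic. Subunit pairs were compared by an exact permutation test (252 arrangements), after 0.5 was added to each count. Transcript length was estimated from counts and FPKM. The pipeline was tested on simulated data. No replicates were merged, since every pair differed by more than counting noise (chi-square 9.94 to 23.0 per gene).

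Alternatives were other scalings and filters, DESeq2 1.42.0, limma-voom (limma 3.58.1), leaving out each library, and a replicate block. Genes named by rule were the subunits, 3 genes per pathway list by smallest p, and the 2 nearest genes per subunit. Grin3b, Dlg4, Phgdh, Psat1 and the cell type markers named were chosen outside that rule, after their values were seen. Subunits and lists were chosen with earlier results of these data known.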

Additional observations from a re-analysis of the deposited data

Results flagged for a closer look

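In 5 of 104 sets of 5 replicate values, 1 library lay far outside the range of the rest; chance alone gives about 1 in 20. The log2 ratio of Grin2a to Grin2b was 0.31 in TTX replicate 3, against 0.48 to 0.51 in the other TTX libraries, and still above every vehicle library. Ctns was at 15.5 CPM in TTX replicate 5, against 12.5 CPM at most in the others. Shmt2 was at 147 CPM in vehicle replicate 4, against 137 to 139 CPM in the others. Slc32a1 was at 124 CPM in vehicle replicate 1, against 135 to 139 CPM in the others. Sp1 was at 51.5 CPM in vehicle replicate 2, against 54.8 to 55.3 CPM in the others.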

How the results depend on the processing

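Grin1, Grin2a, Grin2b and Grin2d kept their direction and their call, and Grin3a stayed uncalled, under RLE, upper-quartile or total-count scaling, both other filters, DESeq2, limma-voom, a replicate block and each left-out library. Leaving out 1 library gave log2 fold changes of -0.34 to -0.30 for Grin1, 0.29 to 0.38 for Grin2a, -0.36 to -0.27 for Grin2b, -0.38 to -0.31 for Grin2d and -0.16 to -0.05 for Grin3a. For Grin2c the range was -0.30 to -0.18 and the edgeR adjusted p 0.00139 to 0.0670, and its call was kept under the scalings, filters, tools and block. Leaving out 1 library gave 8916 to 9031 genes called, a Grin2a to Grin2b log2 ratio difference of 0.61 to 0.70 and 0 to 6 passing pairs. By construction, 5 against 4 libraries cannot give an exact permutation p under 0.0159. Same-numbered libraries did not vary together (correlations of deviations from -0.06 to 0.01). This gave no sign of pairing but cannot exclude it, and the labels do not say whether the numbers pair libraries. With a replicate block 9135 genes were called, against 9221 without, and the ratio difference was 0.65 (exact sign-flip permutation p = 0.0625, adjusted p = 0.188). With that block 0 pairs passed, but 5 pairs cannot give a p under 0.0625. For the 30 list and nearest genes named by the rule, 533 comparisons with an alternative kept direction and call, 6 lost the call (all Samd10) and 1 gained it (Ctns, without TTX replicate 5). For 14 tested genes named outside the rule, run after their values were seen, 243 comparisons kept both, 1 lost the call (Rbfox3) and 8 gained it (Snap25, Dlg4 and Slc32a1). Phgdh, Psat1 and Aqp4 were not among these 14. Grin3a had 2982 counts over all libraries, the fewest of the 6.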
